A study of Mus musculus with 7 samples.

Results

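The genes of the proteasome were compared between retinal pigment epithelium (RPE) of WT and LC3b-/- mice, to ask if their messenger RNA rises where autophagy lacks Map1lc3b. Members were chosen by symbol, as protein-coding genes named Psma to Psmg followed by a number, with the interferon-inducible Psmb8 and Psmb9 left out. The rule found 49 of the 52740 identifiers in the count table. These are 8 genes of the 20S alpha ring, 7 of the constitutive beta ring, 2 inducible or thymic beta subunits, 6 ATPases and 3 other subunits of the 19S base, 8 subunits of the 19S lid, 3 chaperones of 19S assembly, 4 chaperones of 20S assembly, and 6 activators or inhibitors. The last 2, Psmc3ip and Psme3ip1, carry the name of a subunit they interact with and are no subunits, which leaves 47 genes of the particle and its helpers.

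The proteasome degrades proteins that carry ubiquitin chains. Its 20S core is a barrel of outer alpha rings, which gate the entrance, and inner beta rings, which hold the proteolytic sites, and the 19S particle on its end binds the substrate, removes ubiquitin and unfolds the protein with a ring of ATPases. Together with autophagy it carries most of the protein turnover of a cell, and in the RPE, a layer of non-dividing cells that clears shed photoreceptor outer segments every day, both pathways work for the life of the animal.

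RPE came from 4 WT mice of strain C57BL6/J (females F1, F2 and F3 and male M1) and from 3 LC3b-/- mice (females F1 and F3 and male M) of the strain B6;129P2-Map1Lc3btm1Mrab/J, each aged 24 months by its label and sequenced as 1 library. The deletion is carried in every cell of the animal, and the groups come from different strains, so genotype and strain background cannot be told apart. The mouse names also carry a number that the labels do not explain and that no WT mouse shares with an LC3b-/- mouse. Cells were released from eyecups with hyaluronidase and trypsin after removal of cornea, ciliary body, lens and neural retina, and poly(A) RNA went into a stranded library. The authors' estimated counts sum to 24495952 to 35616134 per library. Levels are given as CPM, the count of a gene relative to the library total after scaling by trimmed means (TMM), and values by library follow the order WT F1, F2, F3 and M1, then LC3b-/- F1, F3 and M, throughout.

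Map1lc3b, the targeted gene on chromosome 8 (GRCm39, 122317100 to 122325499), measured 130.1, 117, 104 and 110.1 CPM in WT and 6.77, 8.33 and 6.76 CPM in LC3b-/-. All 7 libraries thus matched their labels, with a log2 fold change of -3.98 ± 0.15 (SE; adjusted p = 0.000186, edgeR's quasi-likelihood test). Of the defining RPE genes, Rpe65 measured 877.7 to 3968 CPM over the 7 libraries while Best1 stayed between 0.861 and 1.71 CPM. The libraries differed in RNA of other cells. The summed level of 9 ocular surface epithelium markers, mostly keratins, was 9.92 to 2461 CPM in WT and 3426 to 24307 CPM in LC3b-/-, where F1 was the highest (9 of 9 markers above 0, 6 at an unadjusted edgeR p under 0.05), and 8 endothelial markers summed to 253 to 814 CPM in WT and 994 to 1077 CPM in LC3b-/-. The 13 RPE markers summed to 31821 to 48968 CPM in WT and 14714 to 29503 CPM in LC3b-/-, and 6 Muller glia markers to 3685 to 4783 and 2616 to 3440 CPM. The 12 photoreceptor markers overlapped between groups but ranged from 96.7 CPM in LC3b-/- F1 and 275 CPM in WT M1 to 21210 CPM in WT F2. The summed levels of the 7 remaining marker lists, macrophages, T and NK cells and fibroblasts among them, overlapped between the groups. Single markers higher in LC3b-/- were 7 of 7 tested for fibroblasts, 7 of 8 for T and NK cells and 7 of 13 for macrophages. For skeletal muscle they were 5 of 6, for erythrocytes 4 of 5, for neutrophils 1 of 3 and for lens 0 of 1. No fibroblast or T and NK cell marker was at an unadjusted edgeR p under 0.05. In such bulk samples fewer cells of a type and less RNA per cell cannot be told apart, and the part of these cells in the values below was not tested.

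No proteasome gene passed the test. Of the 49 members, 48 were tested, and edgeR called 0 (a call needs a 1.5-fold change and, after adjustment, p under 0.05), where 40 of 16990 genes (0.235%) were called over the transcriptome. DESeq2 called 0 of the 48 members, against 9.48% of all genes to which it gave an adjusted p, and limma's voom called 0, against 0.730% of all genes. At an unadjusted edgeR p under 0.05 there were 4 of the 48 members (8.33%), namely Psma8, Psmb10 and Psme2 with higher and Psmd5 with lower values in LC3b-/-, where 24.1% of all genes tested reached this p. The count moved with single libraries. Leaving out WT F1 gave 7 (28.6% of all genes), leaving out WT F2 gave 1 (20.4%) and WT F3 0 (17.5%), and without the male WT M1 there was 1 (17.1%). Of the LC3b-/- libraries, dropping F1 left 2 (13.8%), dropping F3 left 1 (17.9%) and dropping M left 3 (26.2%). In females alone it was 3, against 21.6% of all genes, with voom 7, against 30.7%, and with a replicate block 2, against 23.9%. In each of these fits the share of members was below that of all genes. The smallest adjusted p of any member was 0.155 in the edgeR comparison of all 7 libraries (Psme2), and over the alternatives it ranged from 0.0725 (Psma8, edgeR without WT F1) to 0.325 (Psmg2, edgeR without LC3b-/- F1). A p that misses the threshold does not show equal levels. The groups did not overlap in 4 members (8.33%), higher in LC3b-/- for Psma8, Psme2 and Psme4 and lower for Psmd5, against 22.3% of all genes. The median log2 fold change of the 48 members was -0.04 and that of all genes 0.01.

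**Figure D1:**
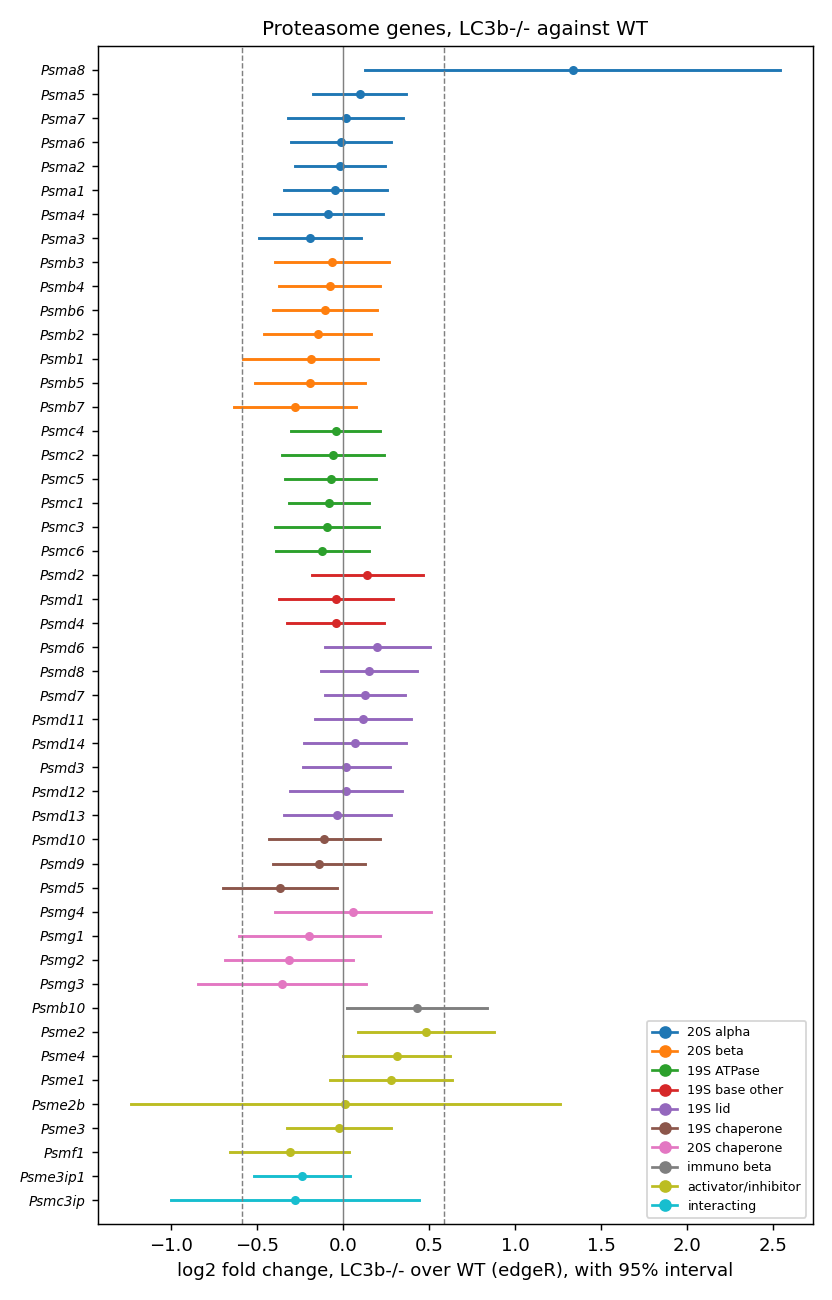
Log2 fold change of LC3b-/- over WT for the 48 tested proteasome genes, ordered by role, with dots for the edgeR estimate, bars for its 95% interval and dashed lines at a change of 1.5-fold either way. The 31 subunits of the 20S and 19S particles other than Psma8 lie between -0.28 and 0.20, and the bars of Psma8, Psmb10 and Psme2 lie above 0 and that of Psmd5 below it.

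For the constitutive subunits the main edgeR comparison set a narrow limit on a change of their level in these bulk libraries. The 31 genes of the 20S alpha and beta rings and of the 19S base and lid, without the sparse Psma8, are expressed at 31.3 to 195.2 CPM in every library. Their log2 fold changes ran from -0.28 (Psmb7) to 0.20 (Psmd6), with a median of -0.04 and a median SE of 0.13, where the median SE of all genes was 0.25. The 95% interval left out a rise of 1.5-fold in 31 of the 31 genes, against 49.9% of all genes tested, and lay within 1.5-fold in both directions in 30, against 24.7% of all genes. Psmb7 was the exception, with a lower limit of -0.63. The highest upper limit was 0.51 on the log2 scale, a 1.42-fold rise, for Psmd6. Each interval covers 1 gene and not all 31 at once. The intervals bound levels in libraries of mixed cells, and a change within RPE cells alone was not measured.

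The libraries differed more from each other than the groups did. Over the 31 subunits the level was highest in WT M1 for 19 genes and in LC3b-/- F1 for 9, and lowest in LC3b-/- F3 for 23 and in WT F1 for 7. The median subunit stood at 1.13 times its mean over the libraries in WT M1, at 1.07 times in LC3b-/- F1, and at 0.874 times in LC3b-/- F3 and 0.920 times in WT F1. Each group thus held a library near the top and another near the bottom. The median coefficient of variation of the subunits was 9.13% in WT and 11.5% in LC3b-/-, where that of all genes was 19.6% and 20.1%. WT M1 and LC3b-/- F1 were also the libraries with the least photoreceptor RNA. In WT F2, with the most (21210 CPM), the median subunit stood at 1.01 times its mean. It stood at 0.874 times in LC3b-/- F3, with 7283 CPM, and at 0.920 times in WT F1, with 2390 CPM. The part of photoreceptor RNA was not tested.

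**Figure D2:**
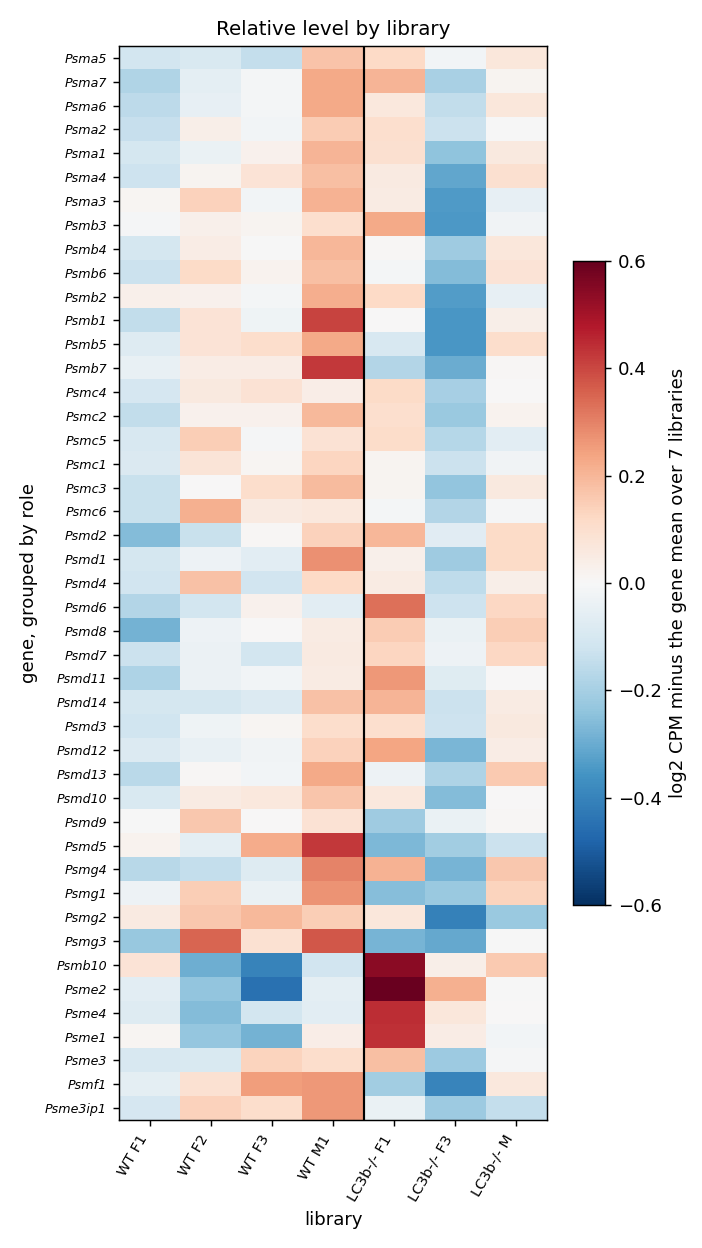
Level of 45 proteasome genes in each library, as log2 CPM minus the mean of the gene over the 7 libraries, in the role order of the plot of fold changes (Psma8, Psmb11, Psme2b and Psmc3ip, at low levels, are left out). The column of WT M1 is above the mean and that of LC3b-/- F3 below it for most subunits, while Psmb10, Psme2, Psme4 and Psme1 are highest in LC3b-/- F1.

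Divided by transcript length and scaled like TPM, the levels of the 47 genes summed to 2699, 2877, 3176 and 3347 in the WT libraries and to 2787, 3034 and 3127 in the LC3b-/- libraries, about 0.301% of the total. The mean was 3025 ± 291 (SD, n = 4) in WT and 2983 ± 176 (SD, n = 3) in LC3b-/-, a ratio of 0.986. The LC3b-/- libraries lay inside the range of the WT libraries. Per length the most abundant member was Psmb4, a beta subunit without a proteolytic site of its own, at 207 ± 20.3 (SD, n = 4) in WT and 197 ± 19.1 (SD, n = 3) in LC3b-/-. The least abundant was Psmb11, the thymus-specific beta subunit, with 7 counts over all libraries, which was not tested. When the coding length was used in place of the transcript length, because some annotated transcripts are very long, the WT means of the constitutive beta subunits ran from 93.8 (Psmb3) to 206 (Psmb4), those of the alpha subunits except Psma8 from 51.2 (Psma5) to 129 (Psma7), those of the ATPases from 41.3 (Psmc6) to 105 (Psmc3) and those of the lid from 29.9 (Psmd6) to 93.4 (Psmd8).

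In the alpha ring, which closes or opens the entrance of the core, 3 of 8 genes were above 0 and 5 below, with a median log2 fold change of -0.01. Psma3 measured 84.9, 92.8, 83.5 and 97.3 CPM in WT and 87.2, 66.7 and 81.5 CPM in LC3b-/-. The groups overlapped and LC3b-/- F3 was the lowest, with a log2 fold change of -0.19 ± 0.13 (SE). The pseudogene Gm13835 shares a stretch of Psma3 and holds 2.49% of their summed counts, and with its copies added Psma3 was at -0.12. Psma5 measured 33.7, 34.2, 33.0 and 41.1 CPM in WT and 39.6, 36.0 and 38.2 CPM in LC3b-/-, so that WT M1 was the highest of all libraries and the other WT libraries lay below LC3b-/-. Psma8, the alpha subunit of testis, measured 0.702, 0.290, 0.225 and 0.269 CPM in WT and 0.765, 0.853 and 1.24 CPM in LC3b-/-. The groups did not overlap, with a log2 fold change of 1.33 ± 0.52 (SE; adjusted p = 0.177, edgeR; p = 0.0571, exact permutation test, two-sided), at a level far below every other alpha subunit. The other 5 alpha genes lay between -0.09 and 0.02.

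The 7 constitutive beta subunits were each below 0 (48.8% of all genes were), none at an unadjusted edgeR p under 0.05, with a median log2 fold change of -0.15. Without LC3b-/- F3 Psmb3 was above 0, at 0.055. Psmb7, which holds the trypsin-like site, measured 117, 124, 124 and 162 CPM in WT and 106, 97.9 and 121 CPM in LC3b-/-. WT M1 stood apart from the other WT libraries, and LC3b-/- M lay within the WT range. The log2 fold change was -0.28 ± 0.15 (SE; adjusted p = 0.297, edgeR) and -0.17 without WT M1. Psmb5, which holds the chymotrypsin-like site, measured 73.5, 82.3, 83.5 and 91.0 CPM in WT and 72.6, 61.0 and 83.5 CPM in LC3b-/-, with a log2 fold change of -0.19 ± 0.14 (SE). Psmb1, a beta subunit without a proteolytic site, measured 97.1, 114, 106 and 143 CPM in WT and 108, 84.7 and 110.3 CPM in LC3b-/-, with a log2 fold change of -0.19 ± 0.17 (SE) that was -0.07 without WT M1 and -0.10 without LC3b-/- F3. Psmb5 and Psmb1 overlapped between the groups. Psmb4 measured 142, 157, 152 and 175 CPM in WT and 153, 131 and 160.0 CPM in LC3b-/-. The log2 fold changes of Psmb2, Psmb3, Psmb4 and Psmb6, the last of which holds the caspase-like site, lay between -0.15 and -0.06.

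The beta ring was also set against the 19S particle within each library, a ratio in which the scaling of the library cancels out and which was chosen after the values were seen. The summed CPM of the 7 constitutive beta subunits over that of the 17 base and lid subunits was 0.518, 0.514, 0.500 and 0.543 in WT and 0.454, 0.447 and 0.486 in LC3b-/-. The groups did not overlap, and the mean was 0.519 ± 0.0178 (SD, n = 4) in WT and 0.463 ± 0.0211 (SD, n = 3) in LC3b-/-, a difference of -10.9%. No test was run on this sum. The difference was -9.24% without Psmb7 and -10.6% per coding length, and in both the groups again did not overlap. Of the single beta subunits over the 19S sum, 4 of 7 did not overlap (Psmb1, Psmb5, Psmb6 and Psmb7, each lower in LC3b-/-), against 12.5% of all genes when divided by the same sum. The 7 quotients share a denominator picked with the values known, so they are not independent of each other or of that choice. On the CPM scale itself 0 of the 7 subunits were free of overlap. The alpha ring over the 19S particle was 0.361, 0.351, 0.350 and 0.367 in WT and 0.350, 0.337 and 0.344 in LC3b-/-, a difference of -3.84% in the means. Here too the groups did not overlap in CPM, though narrowly (0.3503 in WT F3 and 0.3499 in LC3b-/- F1). Per length and per coding length the alpha ratios overlapped. Over all genes tested the median log2 fold change was -0.14 for the 1451 genes whose canonical transcript is under 1000 bases, -0.06 for the 3108 genes of 1000 to 2000 bases, 0.01 for the 6202 genes of 2000 to 4000 bases and 0.07 for the 6161 longer genes. Of the beta subunits, 1 is under 1000 bases long, 4 are between 1000 and 2000, and Psmb2 (4019 bases) and Psmb1 (6002 bases) are longer, with log2 fold changes of -0.15 and -0.19. The lid subunits, of 1387 to 2870 bases, had a median of 0.09. The part of transcript length in the ratio was not tested.

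**Figure D3:**
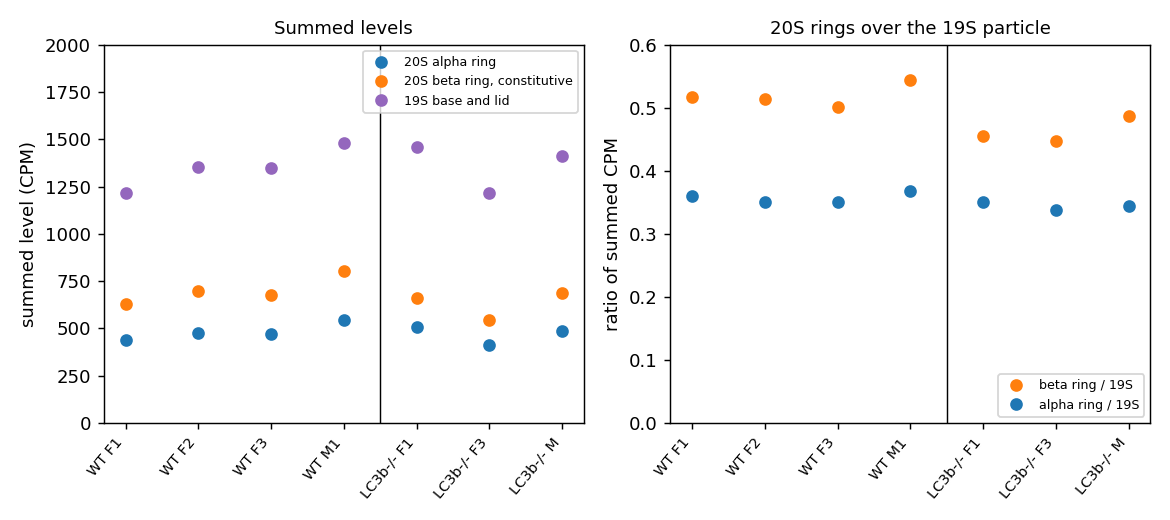
Left, summed CPM of the 20S alpha ring, the constitutive 20S beta ring and the 19S base and lid in each library. Right, the ratio of each 20S ring to the 19S particle within a library, where the beta ring lies at 0.500 to 0.543 in WT and at 0.447 to 0.486 in LC3b-/-.

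The ATPases of the 19S base, which unfold the substrate and open the gate, were all 6 below 0 in the comparison of all libraries, with log2 fold changes of -0.12 to -0.04. Without WT M1 there was 1 above 0, and without LC3b-/- F3 there were 2 (Psmc2 and Psmc4, up to 0.011 and 0.019). Psmc6 measured 40.6, 51.6, 46.1 and 46.4 CPM in WT and 44.0, 39.3 and 44.2 CPM in LC3b-/-. Psmc1 measured 80.7, 90.4, 86.4 and 93.7 CPM in WT and 86.6, 78.2 and 84.3 CPM in LC3b-/-. Psmc3 measured 118, 129.97, 139.5 and 148 CPM in WT and 131, 110.0 and 135 CPM in LC3b-/-. In these 3 genes the groups overlapped, LC3b-/- F3 was the lowest library, and the differences (-0.12 ± 0.12, -0.08 ± 0.10 and -0.09 ± 0.13, log2 ± SE) were no larger than about 1 SE.

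Among the other base subunits, Psmd2, a scaffold of the base, was higher on average in LC3b-/- and Psmd1 and the ubiquitin receptor Psmd4 were close to equal. Psmd2 measured 142, 155, 171 and 187 CPM in WT and 195, 162 and 184 CPM in LC3b-/-, with a log2 fold change of 0.14 ± 0.14 (SE), or 0.08 without LC3b-/- F1 and 0.08 without WT F1. Psmd1 measured 120.3, 127, 124 and 157 CPM in WT and 132, 112 and 140.3 CPM in LC3b-/-. Psmd4 measured 74.6, 91.4, 74.6 and 87.8 CPM in WT and 83.5, 72.6 and 82.8 CPM in LC3b-/-. Their groups overlapped, and the log2 fold change of -0.04 in Psmd1 turned to 0.05 without WT M1 and to 0.02 without LC3b-/- F3.

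In the lid, which holds the deubiquitinase Psmd14, 7 of 8 genes were above 0 (51.2% of all genes were), none at an unadjusted edgeR p under 0.05, with a median log2 fold change of 0.09. The number above 0 ran from 4 to 8 when 1 library was left out, with 4 without LC3b-/- F1, 5 without WT F1, and 8 without WT M1 or without LC3b-/- F3. With all libraries it was 5 with DESeq2, with voom and with DESeq2 size factors in edgeR, and 8 with library size alone. Psmd6, a scaffold subunit of the lid, measured 31.3, 32.6, 35.9 and 33.8 CPM in WT and 44.3, 32.3 and 38.4 CPM in LC3b-/-. The log2 fold change was 0.20 ± 0.13 (SE; adjusted p = 0.383, edgeR), with LC3b-/- F1 and M above all WT libraries and F3 among them. It was 0.08 without LC3b-/- F1. Psmd7, the partner of Psmd14, measured 50.6, 54.0, 51.2 and 57.4 CPM in WT and 60.5, 54.1 and 60.3 CPM in LC3b-/-, a log2 fold change of 0.13 ± 0.10 (SE). Psmd8 measured 81.1, 96.8, 98.9 and 102 CPM in WT and 109.9, 96.2 and 109.5 CPM in LC3b-/-, a log2 fold change of 0.15 ± 0.12 (SE). In both genes LC3b-/- F1 and M again lay above WT and F3 within it. Psmd3, Psmd11, Psmd12, Psmd13 and Psmd14 had log2 fold changes of -0.03 to 0.11.

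Of the 7 chaperones that assemble the particle none was called by edgeR, and 1, Psmd5, was at an unadjusted p under 0.05. Psmd5, which holds ATPases of the base until they are built in, is on chromosome 2 (GRCm39, 34739746 to 34764980). It measured 27.5, 25.9, 31.6 and 36.3 CPM in WT and 22.4, 23.4 and 24.7 CPM in LC3b-/-. The LC3b-/- libraries were thus all lower than the lowest WT library, as in 10.3% of all genes. The log2 fold change was -0.37 ± 0.14 (SE, 95% interval -0.70 to -0.03; unadjusted p = 0.0354, adjusted p = 0.180, edgeR), and the exact permutation test over the 35 splits gave p = 0.0571, where the smallest it can give is 0.0286. Without WT M1 the log2 fold change was -0.27. Psmd9 measured 20.8, 23.3, 20.9 and 22.1 CPM in WT and 17.96, 20.2 and 21.0 CPM in LC3b-/-, and Psmd10, also known as gankyrin, 13.9, 15.3, 15.5 and 16.6 CPM and 15.5, 12.4 and 14.8 CPM. Both are chaperones of the ATPase ring, and in both the groups overlapped, with log2 fold changes of -0.14 ± 0.11 (SE) and -0.11 ± 0.14 (SE).

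The chaperones of the 20S core, Psmg1 to Psmg4, build the alpha ring and had a median log2 fold change of -0.26, with 3 of 4 genes below 0. Psmg2 measured 11.3, 12.2, 12.5 and 12.1 CPM in WT and 11.4, 8.23 and 9.33 CPM in LC3b-/-, with a log2 fold change of -0.32 ± 0.16 (SE; unadjusted p = 0.0856, adjusted p = 0.269, edgeR). Psmg3 measured 6.41, 9.57, 8.01 and 9.73 CPM in WT and 6.20, 6.07 and 7.502 CPM in LC3b-/-, with a log2 fold change of -0.35 ± 0.21 (SE). Psmg1 measured 9.10, 10.3, 9.02 and 11.2 CPM in WT and 7.77, 7.95 and 10.2 CPM in LC3b-/-, with a log2 fold change of -0.20 ± 0.18 (SE). None reached an unadjusted edgeR p of 0.05, and the groups overlapped in all 3. Psmg4 was at 0.06 ± 0.20 (log2 ± SE).

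The interferon-inducible form of the particle is represented by Psmb10, Psme1 and Psme2. In the immunoproteasome Psmb10 takes the place of Psmb7 in the beta ring, and Psme1 and Psme2 form the PA28 ring, an activator that docks on the 20S core in place of the 19S particle. Psmb10 is on chromosome 8 (GRCm39, 106662362 to 106665077), 15.7 Mb from the targeted Map1lc3b. Psmd7 (14.0 Mb) and Psme3ip1 (27.0 Mb) are on this chromosome too. The part of strain sequence near the targeted gene was not tested. Psmb10 measured 24.5, 18.9, 17.6 and 21.4 CPM in WT and 33.7, 23.7 and 25.8 CPM in LC3b-/-. LC3b-/- F1 was the highest library and WT F1 lay just above LC3b-/- F3, so that the groups overlapped. The log2 fold change was 0.43 ± 0.17 (SE, 95% interval 0.02 to 0.84; unadjusted p = 0.0403, adjusted p = 0.190, edgeR), and the exact permutation test gave p = 0.0857. Without LC3b-/- F1, the library with the most keratin RNA, the log2 fold change was 0.26 (unadjusted p = 0.163, edgeR).

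Psme2, on chromosome 14 (GRCm39, 55824895 to 55829173), measured 46.2, 40.9, 35.3 and 46.2 CPM in WT and 72.7, 55.8 and 48.1 CPM in LC3b-/-. Every LC3b-/- library lay above every WT library, as in 12.0% of all genes, with F1 again the highest. The log2 fold change was 0.48 ± 0.17 (SE, 95% interval 0.09 to 0.88; unadjusted p = 0.0235, adjusted p = 0.155, edgeR), a 1.40-fold difference, and the exact permutation test gave 0.0286, its smallest p. With DESeq2 size factors the permutation p of Psme2 was above this smallest value. Without LC3b-/- F1 the log2 fold change of Psme2 was 0.30 (unadjusted p = 0.0939, edgeR). Its near-identical copy Psme2b on chromosome 11, with which it may share reads, holds 4.58% of their summed counts. Psme2b measured 2.99, 2.24, 1.27 and 2.54 CPM in WT and 0.725, 2.93 and 3.16 CPM in LC3b-/-. Summed with this copy, Psme2 was at 0.46. Psme1, a neighbour of Psme2 on chromosome 14, measured 64.2, 54.3, 52.3 and 65.6 CPM in WT and 86.4, 65.9 and 63.0 CPM in LC3b-/-. The groups overlapped, with a log2 fold change of 0.28 ± 0.15 (SE; adjusted p = 0.298, edgeR), which was 0.12 without LC3b-/- F1.

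The other activators split in direction. Psme4, or PA200, a single-chain activator of the nucleus, measured 43.6, 38.5, 42.6 and 44.1 CPM in WT and 62.7, 48.2 and 46.2 CPM in LC3b-/-. The groups did not overlap, and the log2 fold change was 0.31 ± 0.13 (SE; unadjusted p = 0.0506, adjusted p = 0.209, edgeR), or 0.16 without LC3b-/- F1. Psme3, the nuclear PA28 gamma, measured 54.0, 54.0, 63.1 and 61.9 CPM in WT and 65.2, 49.5 and 57.4 CPM in LC3b-/-, with a log2 fold change of -0.02 ± 0.13 (SE) whose sign turned with the scaling. Psmf1, or PI31, named as an inhibitor of the 20S core and known to act in its transport, measured 29.0, 32.2, 36.0 and 36.1 CPM in WT and 26.1, 22.9 and 31.6 CPM in LC3b-/-. LC3b-/- M lay among the WT libraries and the other two below them, with a log2 fold change of -0.31 ± 0.15 (SE; unadjusted p = 0.0730, adjusted p = 0.248, edgeR). Psme3ip1, a partner of Psme3, measured 33.7, 39.8, 38.8 and 43.3 CPM in WT and 35.1, 31.0 and 32.7 CPM in LC3b-/-, and Psmc3ip, a recombination factor named for its binding to Psmc3, 1.87, 2.65, 2.77 and 3.23 CPM and 1.61, 2.68 and 2.19 CPM. Their log2 fold changes were -0.24 ± 0.12 (SE) and -0.28 ± 0.31 (SE).

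**Figure D4:**
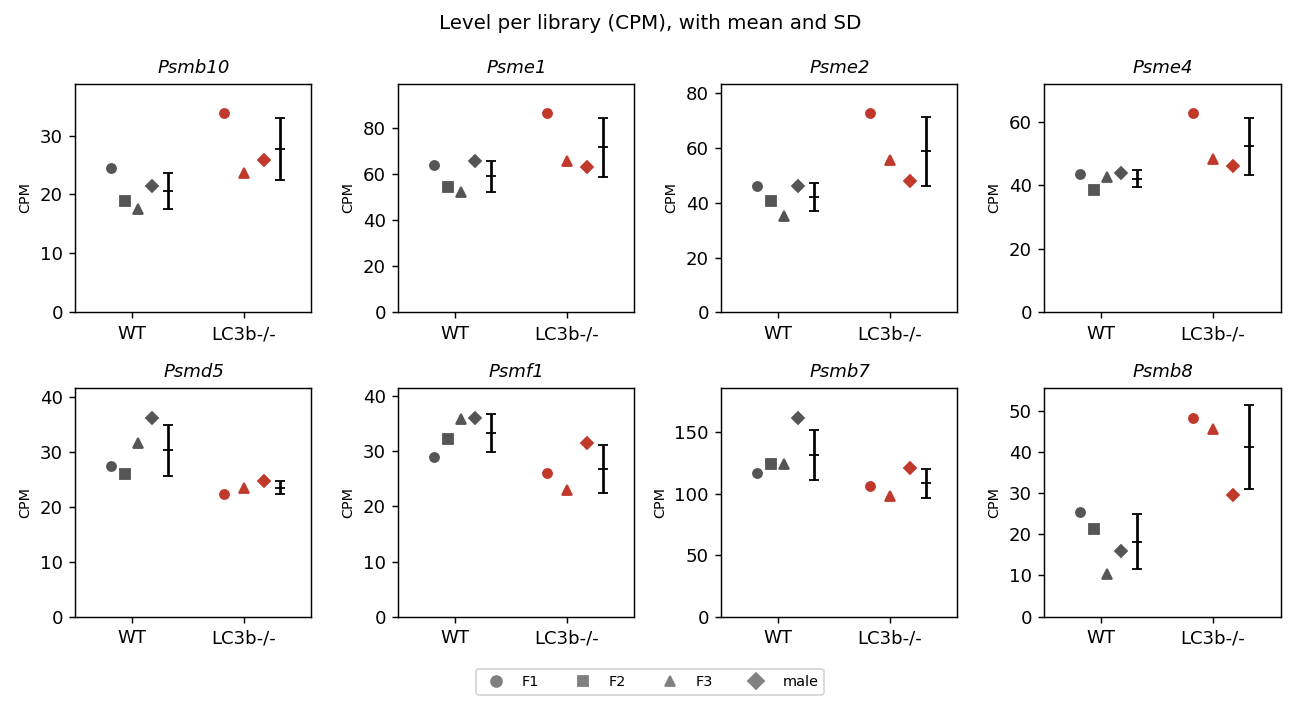
CPM in each library for 7 proteasome genes and for Psmb8, with a symbol per mouse name and the mean and SD of each group at the right of its points (WT n = 4, LC3b-/- n = 3). LC3b-/- F1 is the highest library for Psmb10, Psme1, Psme2, Psme4 and Psmb8, and the groups do not overlap for Psme2, Psme4, Psmd5 and Psmb8.

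The balance of inducible to constitutive subunits was read within each library. Psmb10 over Psmb7 (CPM) was 0.210, 0.152, 0.142 and 0.132 in WT and 0.317, 0.242 and 0.213 in LC3b-/-, so that the groups did not overlap, though LC3b-/- M stood only just above WT F1. The log2 fold changes of its parts were 0.43 (Psmb10) and -0.28 (Psmb7), and neither gene passed the test. The mean was 0.159 ± 0.0349 (SD, n = 4) in WT and 0.258 ± 0.0535 (SD, n = 3) in LC3b-/-, a description with no test. Psmb8 over Psmb5 was 0.122 to 0.347 in WT and 0.355 to 0.748 in LC3b-/-. The groups did not overlap, again narrowly (0.347 in WT F1 and 0.355 in LC3b-/- M). Psmb9 over Psmb6 was 0.0373 to 0.126 in WT and 0.0919 to 0.150 in LC3b-/-, and here they overlapped. The PA28 subunits were set against Psme3 of the same family, and the groups overlapped for Psme1 (0.8292 to 1.19 in WT, 1.098 to 1.33 in LC3b-/-) and for Psme2 (0.559 to 0.855 in WT, 0.838 to 1.13 in LC3b-/-). For such ratios the share of all gene pairs without overlap was not computed. Of all single genes 22.3% did not overlap between the groups. Psmb8 and Psmb9, the other inducible beta subunits, are left out by the rule. Psmb8 measured 25.5, 21.2, 10.2 and 15.9 CPM in WT and 48.3, 45.6 and 29.7 CPM in LC3b-/-, with a log2 fold change of 1.18 ± 0.32 (SE) that edgeR did not call (adjusted p = 0.105) and DESeq2 did (adjusted p = 0.0130). Psmb9 measured 11.7, 7.997, 3.86 and 7.46 CPM in WT and 13.1, 12.8 and 9.92 CPM in LC3b-/-, with a log2 fold change of 0.62 ± 0.34 (SE; adjusted p = 0.308, edgeR). In the constitutive forms they replace, Psmb5 and Psmb6, the log2 fold changes were -0.19 and -0.11.

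Promoters were read from RefSeq (GRCm38.p6, 250 bases before the start of the gene) for the members of both forms, to show which known elements they carry. An entry was found for 41 of the 49 members, in 45 windows, and Psma8, Psmb1, Psmb2, Psmb7, Psmc3, Psmd3, Psmd7 and Psmg2 had none. 4 motifs were searched on both strands. The antioxidant response element core TGACNNNGC, a site of the factors NFE2L1 and NFE2L2 that drive proteasome genes when proteolysis fails, was in 5 of the 45 windows (11.1%), those of Psmb5, Psmb6, Psmc6, Psmd9 and Psmd12, and in 10.2% of all 32851 windows. The CCAAT box was in 33.3% of the member windows and 33.8% of all. The gamma-activated site TTCNNNGAA was in 1 window (Psmg1) against 7.02% of all, and the core of the interferon-stimulated response element (GAAA, any 2 bases, GAAA) in 3 (Psmb3, Psmd4 and Psmd9) against 2.98% of all. The beta subunits Psmb5 and Psmb6, with the response element in capitals, and the inducible Psmb10 and Psme2, in which none of the motifs was found, are shown here 5′ to 3′.
Psmb5, chr14:54617996-54618245, minus strand: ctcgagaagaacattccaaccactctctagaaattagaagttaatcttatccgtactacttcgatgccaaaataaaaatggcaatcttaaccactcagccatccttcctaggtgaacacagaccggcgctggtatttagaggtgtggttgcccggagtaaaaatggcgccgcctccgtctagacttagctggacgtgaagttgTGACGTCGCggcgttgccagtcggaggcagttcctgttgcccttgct
Psmb6, chr11:70525107-70525356, plus strand: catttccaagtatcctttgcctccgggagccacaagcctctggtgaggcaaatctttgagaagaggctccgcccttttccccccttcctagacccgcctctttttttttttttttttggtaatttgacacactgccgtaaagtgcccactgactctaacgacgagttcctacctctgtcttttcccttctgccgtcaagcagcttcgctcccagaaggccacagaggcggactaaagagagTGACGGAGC
Psmb10, chr8:105938393-105938642, minus strand: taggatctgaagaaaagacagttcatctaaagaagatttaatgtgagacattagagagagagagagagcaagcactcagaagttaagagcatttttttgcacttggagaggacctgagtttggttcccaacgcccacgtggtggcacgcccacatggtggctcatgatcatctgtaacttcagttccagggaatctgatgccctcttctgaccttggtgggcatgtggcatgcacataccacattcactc
Psme2, chr14:55591102-55591351, minus strand, the first of 2 windows: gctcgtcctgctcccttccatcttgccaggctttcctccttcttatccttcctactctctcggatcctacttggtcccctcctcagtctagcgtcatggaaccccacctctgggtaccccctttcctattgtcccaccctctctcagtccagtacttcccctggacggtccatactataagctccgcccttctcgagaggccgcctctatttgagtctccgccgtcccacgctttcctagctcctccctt
The members with the response element were those of 2 beta subunits, an ATPase, a chaperone and a lid subunit, with log2 fold changes of -0.19 (Psmb5), -0.11 (Psmb6), -0.12 (Psmc6), -0.14 (Psmd9) and 0.02 (Psmd12). A match describes letters in a window and no binding was measured.

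The factors that control proteasome transcription were read from a list of 14 genes, of which 3 (21.4%) were at an unadjusted edgeR p under 0.05, each with higher values in LC3b-/-, against 24.1% of all genes, and 0 were called by edgeR. Nfe2l1, whose protein is cut by Ddi2 and then activates proteasome genes, measured 379.7, 341, 384 and 422 CPM in WT and 339, 319 and 408 CPM in LC3b-/-, with a log2 fold change of -0.10 ± 0.15 (SE). Nfe2l2, the factor of the oxidative stress response, measured 63.7, 46.0, 45.5 and 56.2 CPM in WT and 65.5, 50.1 and 61.5 CPM in LC3b-/-, a log2 fold change of 0.16 ± 0.16 (SE). The groups overlapped in both. Ddi2 measured 40.0, 43.7, 45.5 and 36.1 CPM in WT and 61.5, 53.1 and 48.5 CPM in LC3b-/-. All LC3b-/- libraries lay above WT, as in 12.0% of all genes. The log2 fold change was 0.40 ± 0.13 (SE), with an unadjusted p of 0.0169 and an adjusted p of 0.138 from edgeR. Maff and Mafk encode small Maf proteins, which pair with NFE2L1 and NFE2L2 on DNA. Maff measured 51.7, 30.9, 15.8 and 17.8 CPM in WT and 63.1, 53.9 and 74.5 CPM in LC3b-/-. Its log2 fold change was 1.14 ± 0.40 (SE), with an adjusted p of 0.157 from edgeR and of 0.0490 from DESeq2. Mafk measured 76.1, 46.1, 26.1 and 27.1 CPM in WT and 106, 79.2 and 83.6 CPM in LC3b-/-, with a log2 fold change of 1.03 ± 0.38 (SE; adjusted p = 0.163, edgeR). WT F1 came close to the LC3b-/- libraries in both Maf genes.

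Of the other subunits and partners of the particle, 17 of the 18 listed had a row, 2 were at an unadjusted edgeR p under 0.05 and 0 were called, with a median log2 fold change of 0.01. Pomp, the chaperone that completes the 20S core, measured 65.4, 77.0, 67.2 and 72.7 CPM in WT and 84.0, 62.2 and 66.8 CPM in LC3b-/-, a log2 fold change of 0.01 ± 0.13 (SE). Zfand5, which binds the particle and raises its activity, measured 132, 117, 112 and 132 CPM in WT and 169.7, 163 and 154 CPM in LC3b-/-. Every LC3b-/- library lay above every WT library, as in 12.0% of all genes. The log2 fold change was 0.40 ± 0.11 (SE), with an unadjusted p of 0.00845 and an adjusted p of 0.111 from edgeR. Ubqln2, a shuttle that brings ubiquitinated proteins to the particle, measured 49.9, 60.2, 60.7 and 56.1 CPM in WT and 41.5, 48.6 and 47.3 CPM in LC3b-/-, with a log2 fold change of -0.31 ± 0.12 (SE; unadjusted p = 0.0304, adjusted p = 0.171, edgeR).

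The pathway before the proteasome gave no gene called by edgeR either. None of the 6 ubiquitin and E1 genes and none of the 10 genes of p97 and its cofactors, which extract proteins from complexes and membranes, was at an unadjusted edgeR p under 0.05, and their median log2 fold changes were 0.20 and -0.09. Of 12 genes of antigen presentation that interferon gamma induces, Psmb8 and Psmb9 among them, 3 were at this p (25.0%, against 24.1% of all genes), each with higher values in LC3b-/-, and the median log2 fold change was 0.56. Tapbp, or tapasin, which loads peptides on class I molecules, measured 121, 107, 96.8 and 99.2 CPM in WT and 168, 159 and 127 CPM in LC3b-/-, with a log2 fold change of 0.51 ± 0.14 (SE; adjusted p = 0.109, edgeR). H2-D1, a class I heavy chain, measured 456, 322, 168 and 226 CPM in WT and 537, 559.5 and 507 CPM in LC3b-/-, with a log2 fold change of 0.87 ± 0.32 (SE; adjusted p = 0.166, edgeR). In both genes, as in Psmb8, every LC3b-/- library lay above every WT library, as in 12.0% of all genes. These were the only 3 of the 12 genes without overlap (25.0%), against 22.3% of all genes in either direction. Of the 12 genes edgeR called 0 and DESeq2 called 1, Psmb8.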

How the data were processed

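The authors deposited estimated counts per gene for 7 libraries, which they made by quantifying single reads of 100 bases with salmon against GENCODE transcripts of GRCm39 and summing them per gene with tximeta. The column of each library was matched to its mouse by name. The counts were used as deposited. Genes were filtered with filterByExpr (16990 kept) and libraries were scaled by TMM. LC3b-/- was compared with WT by edgeR 4.0.16 (quasi-likelihood test, R 4.3.3) over all genes, with Benjamini-Hochberg adjustment and calls as defined above (adjusted p under 0.05, 1.5-fold). Log2 CPM for the permutation tests used a prior count of 2, and all tests were two-sided. Intervals are 95% intervals from the edgeR SE. Levels per length divide counts by the mean transcript length of the gene (GENCODE vM39). Copies were sought with BLAST 2.17.0 (at least 95% identity over 400 bases). Alternatives were DESeq2 1.42.0, limma 3.58.1 (voom), other scaling and filters, sex as a covariate, females alone, a replicate block and leaving out each library. The edgeR fit was tested on simulated data first, and the alternatives were not. There edgeR called few of the genes changed by 1 on the log2 scale and most of those changed by 2. Members and lists were chosen with earlier results of these data known. Values by library are given for the 3 members of each role with the smallest unadjusted p, the activators and inhibitor, Psmb10, and the most and least abundant members, and in the other lists for up to 3 genes at an unadjusted p under 0.05 with Nfe2l1, Nfe2l2 and Pomp. The libraries are labelled as separate mice, so p-values measure the spread between animals of these 2 strains.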

Additional observations from a re-analysis of the deposited data

Results flagged for a closer look

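Among the 48 tested members, 5 had a WT library that stood apart from the other 3 by Dixon's criterion, which chance meets in about 1 in 20 independent groups. The members are not independent, as many subunits were highest in the same library. The share over all genes was not computed, so an excess among the members is not shown. In 4 of them the library was WT M1, the only male WT mouse, which was also the highest library for most subunits. Psmd14, the deubiquitinase of the lid, measured 48.2 CPM in WT M1 and 39.7 to 40.4 CPM in the other WT libraries. Psma5 measured 41.1 CPM in WT M1 and 33.0 to 34.2 CPM in the others. Psmg4, a chaperone of the alpha ring, measured 13.2 CPM in WT M1 and 9.57 to 10.2 CPM in the others. Psmb7 measured 162 CPM in WT M1 and 117 to 124 CPM in the others. Psma8 measured 0.702 CPM in WT F1 and 0.225 to 0.290 CPM in the others, close to the level of LC3b-/- F1 (0.765 CPM).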

How the results depend on the processing

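With 4 against 3 mice, edgeR called 0 members in the main comparison and under every alternative run, while 4 were at an unadjusted p under 0.05. That number was 7 with voom and 0 to 7 when 1 library was left out, with the count for each library given above. Mice of the 2 groups share the last part of their names (F1, F3) but not the number before it, which differs between genotypes, and not every library resembled its namesake most, so the pairing was not established. With the replicate block 2 members were at this p and 0 were called. The median log2 fold change of the 31 subunits stayed between -0.11 and 0.02 without 1 library, and the number of members above 0 went from 17 to 12 to 26 (26 without LC3b-/- F3). In the other pathway lists DESeq2 called 2 genes where edgeR called 0, and the 8 genes at an unadjusted p under 0.05 became 15 with voom, 5 with females alone and 3 to 16 without 1 library (16 without WT F1, 4 without WT M1, 3 without LC3b-/- F1). Members with the smallest permutation p numbered 2 (Psme2 and Psme4), and 0 with DESeq2 size factors. The summed level kept a ratio of 0.9748 to 1.03 under the other length measures. Per coding length the 19S base and lid summed to 929 to 1061 in WT and 1071 to 1098 in LC3b-/-. The groups did not overlap there, with a difference of 6.79% in the means. In CPM, per mean transcript length and per longest transcript the 19S sums overlapped. No test was run on these sums. Differences near 0 changed sign. Psmd1 was -0.12 to 0.049 without 1 library. Psmd4 was 0.013 with the replicate block and -0.11 to 0.011 without 1 library. Psme2b was -0.0099 with DESeq2, -0.0074 with its size factors, -0.0031 with no filter, -0.069 with sex as a covariate, -0.24 with females alone, -0.11 with the replicate block and -0.30 to 0.43 without 1 library. Psme3 was 0.0050 with library size alone, 0.0043 with females alone and -0.13 to 0.056 without 1 library. Pomp was -0.016 with DESeq2, -0.039 with voom, -0.013 with DESeq2 size factors, -0.0054 with no filter and -0.13 to 0.076 without 1 library. The cause was not tested.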
